A study of Mus musculus with 8 samples.

Results

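The antigen receptor loci are the stretches of the mouse genome in which B and T cells assemble their receptor genes from V, D and J segments. Members were selected on position alone, as every deposited EBF1 or Brg1 peak that overlaps Igk, Igh, Igl, Tra/Trd, Trb or Trg with 50 kb added on each side. This gave 140 peaks of 5757 in all, namely 4 of 312 for EBF1 in DMSO, 0 of 5 for EBF1 after dTAG-13, 8 of 234 for Brg1 in DMSO and 128 of 5206 for Brg1 after dTAG-13. Counts of peaks per locus are therefore a description of what the selection found and carry no test.

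The cells were mouse pro-B cells transformed with A-MuLV, the Abelson murine leukaemia virus, in which endogenous EBF1 had been replaced by an introduced EBF1 fused to a dTAG. All groups carry this replacement, so no group has unmodified EBF1. EBF1 was precipitated from line EBF1-dTAG_C and Brg1 from line EBF1-dTAG_N, each from cells given DMSO and from cells given 0.5 µM dTAG-13 for 6 h, which is a small molecule that links a dTAG fusion protein to a ubiquitin ligase. For the controls the titles give 0 h, whereas the treatment label gives DMSO for 6 h. With 1 library in each group, differences between conditions could not be set against replicates, and antibody and line cannot be told apart.

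In V(D)J recombination the RAG1 and RAG2 enzyme cuts beside V, D and J segments, at signals made of a conserved heptamer and nonamer, and end-joining enzymes seal the cut ends. Pro-B cells rearrange Igh first and the light-chain loci Igk and Igl afterwards, and the T-cell receptor loci normally rearrange in thymocytes. EBF1 is a transcription factor required for the B lineage, and Brg1, encoded by Smarca4, is the ATPase of BAF complexes, which move nucleosomes. Enhancers beside the constant segments drive transcription and recombination, among them Eμ in the intron between the heavy-chain J segments and Ighm. A-MuLV lines often carry rearranged Igh alleles, in which the DNA between joined segments is lost; which alleles these lines carry is not given in the sources used here.

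Sequence could be read for annotated promoters, each a RefSeq window from 250 bases before to 50 bases after a gene start (GRCm38.p6). The loci hold 40 such windows, all of other genes that lie within the spans. Promoters of V, D, J and C segments are not among them and were not read. None overlapped a peak, and 2 lay within 120 bp of one, both starts of non-coding genes in the distal Igh V array on the + strand, opposite to the Ighv segments. These windows, of Gm30948 and Gm30996, are shown with that of another + strand gene, Gm40900, because the 3 are near-copies of one another and only the first pair lies beside Brg1 peaks. Capitals mark matches to the E-box CANNTG and to the recombination heptamer CACAGTG on either strand, and no match of one overlaps a match of the other.
Gm30948: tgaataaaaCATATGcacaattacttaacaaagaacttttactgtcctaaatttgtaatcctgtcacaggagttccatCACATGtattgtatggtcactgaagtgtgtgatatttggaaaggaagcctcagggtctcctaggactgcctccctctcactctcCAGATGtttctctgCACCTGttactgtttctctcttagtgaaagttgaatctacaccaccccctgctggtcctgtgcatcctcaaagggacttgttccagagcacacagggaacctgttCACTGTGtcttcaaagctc
Gm30996: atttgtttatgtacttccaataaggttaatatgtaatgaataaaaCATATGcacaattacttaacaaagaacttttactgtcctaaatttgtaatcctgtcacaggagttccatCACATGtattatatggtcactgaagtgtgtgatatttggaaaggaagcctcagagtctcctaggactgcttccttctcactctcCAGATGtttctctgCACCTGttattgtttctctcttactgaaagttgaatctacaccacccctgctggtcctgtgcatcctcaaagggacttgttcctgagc
Gm40900: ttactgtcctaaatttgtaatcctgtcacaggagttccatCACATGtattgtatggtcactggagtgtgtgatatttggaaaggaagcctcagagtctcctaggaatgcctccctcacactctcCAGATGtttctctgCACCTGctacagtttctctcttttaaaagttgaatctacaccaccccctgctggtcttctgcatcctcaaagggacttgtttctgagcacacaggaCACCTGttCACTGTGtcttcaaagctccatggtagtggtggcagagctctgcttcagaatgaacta
The windows lie at chr12:115262401-115262700, chr12:115407364-115407663 and chr12:115703580-115703879. Local alignment gave 257 identical bases in 265 aligned columns (97%) between Gm30948 and Gm30996, 247 of 262 (94.3%) between Gm30948 and Gm40900, and 211 of 227 (93%) between Gm30996 and Gm40900. Each window holds 4 E-boxes, but not the same 4. The window of Gm40900 starts past the CATATG of the others and has another CACCTG near its heptamer. The windows of Gm30948 and Gm40900 hold 1 heptamer each. That of Gm30996 ends before the matching place, so whether its copy has the heptamer was not read. An E-box was present in 72.3% of all 32851 promoter windows and a heptamer in 6.81%, against 35 and 8 of the 40 windows in the loci. The palindromic EBF1 motif, TCCC and GGGA with any 2 bases between them, was in 0 of the 40 and in 0.904% of all windows.

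After dTAG-13, a Brg1 peak ended 117 bp before the Gm30948 window (chr12:115262068-115262284, 3.97-fold, 20 fragments at the summit). Another began 107 bp past the Gm30996 window (chr12:115407770-115408181, 6.38-fold, 23 fragments), the first of 3 peaks within 2098 bp. Fold is the authors' enrichment of the summit over local background, and fragments at the summit were recovered from it and from the authors' p. Ranks below are by the authors' −log10 q, where q is p adjusted for multiple testing. The nearest peak to the Gm40900 window lay 45.7 kb away. In DMSO the nearest Brg1 peak to any of the 3 windows was over a megabase off, at 1079.6 kb from Gm30948. Distal Igh V DNA is known for repeated elements from which antisense transcripts start in pro-B cells. Near-identical copies share reads, and how reads that map to several places were treated is not given in the sources used here; its part in these peaks was not tested.

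Per locus, EBF1 peaks in DMSO lay in Igk alone, with 4 there and 0 in the other 5 loci. The 4 are 1.28% of the EBF1 list (95% exact binomial interval 0.35 to 3.25). They come to 1.22 per Mb of Igk, against 0.115 for the list with each chromosome counted up to its last annotated gene. At that list density, 0 peaks in a span such as Igh, 2.7 Mb, is unremarkable. The 8 Brg1 peaks in DMSO lay in immunoglobulin loci, with 5 in Igk, 2 in Igh and 1 in Igl. After dTAG-13 the Brg1 list held 50 peaks in Igk, 45 in Igh, 11 in Igl, 10 in Tra/Trd, 3 in Trb and 9 in Trg. The immunoglobulin loci thus held 106 of the 128 and the T-cell receptor loci 22. As a share of its list, the loci held 3.42% of Brg1 peaks in DMSO (95% exact binomial interval 1.49 to 6.63) and 2.46% after dTAG-13 (2.06 to 2.92), so the intervals overlap; they cover counting error only. The rise from 8 to 128 went with a longer list, 234 against 5206 peaks, and with a lowest local background of 0.607 fragments in DMSO against 2.15 after dTAG-13, a ratio of 3.54. Among the 234 highest peaks after dTAG-13 by −log10 q, as many as the DMSO list has, 4 lay in the loci, fewer than the 8 in DMSO. At a fold of at least 5 the counts were 8 of the 194 list peaks left in DMSO and 36 of the 1525 left after dTAG-13.

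Per megabase, Brg1 peaks after dTAG-13 were densest in the small loci, with 36.8 per Mb in Igl and 32.8 in Trg. Igh held 16.7, Igk 15.3, Tra/Trd 5.27 and Trb 3.91. The whole list comes to 1.91 per Mb when each chromosome is counted up to its last annotated gene. The members were not high within their list. Their median fold was 4.56 against 4.45 for the list, and 69 of 128 (53.9%) exceeded the list's median. No member of any list lay on a local background above 5 times the lowest of its library.

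**Figure D1:**
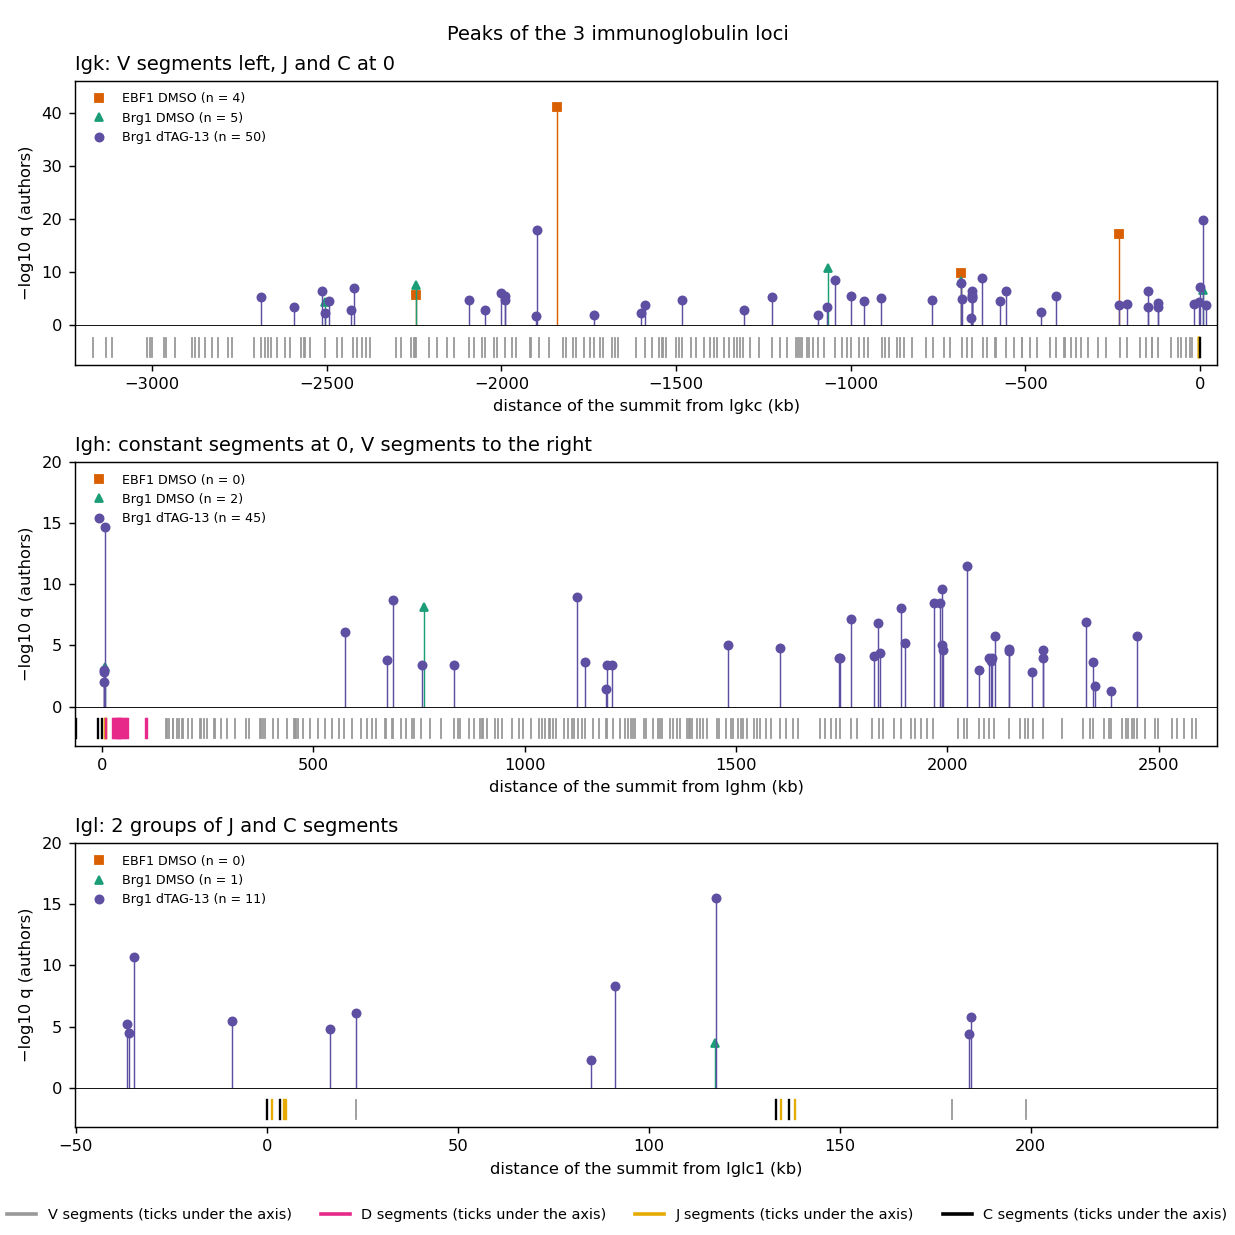
Summits of the members in Igk, Igh and Igl by distance from the named constant segment (kb), with the authors' −log10 q as height; ticks under the axis are V, D, J and C segments. EBF1 squares appear in Igk only, and the Brg1 peaks after dTAG-13 leave a gap of 566.4 kb in Igh between the J segments and the first V segments with a peak.

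All 4 EBF1 sites lay between V segments of the Igk V array, on chromosome 6. The highest, chr6:68884184-68884531, had 16.2-fold enrichment, 55 fragments at the summit and −log10 q of 41.2, rank 10 of the 312 EBF1 peaks in DMSO. It lies 21.3 kb from Igkv1-88 and 18.4 kb from Igkv13-87 and was overlapped by no Brg1 peak in either condition. The nearest Brg1 summit was 403.0 kb away in DMSO and 57.1 kb away after dTAG-13. An enhancer of the Igk V array has been described in this neighbourhood; whether the peak falls on it was not tested.

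The next EBF1 site, chr6:70493986-70494266, had 10.1-fold enrichment and 32 fragments (rank 52), 3.54 kb from Igkv3-12-1. No Brg1 peak lay there in DMSO, the nearest being 241.7 kb off, and after dTAG-13 a Brg1 peak of 4.06-fold with 17 fragments overlapped it by 192 bp. The site chr6:70041023-70041223, 3.01 kb from Igkv8-34, had 7.41-fold enrichment and 25 fragments (rank 136). Brg1 was present there in both conditions, at 8.06-fold with 15 fragments in DMSO and 4.94-fold with 26 fragments after dTAG-13, with summits 40 and 53 bp from that of EBF1. The lowest site, chr6:68481222-68481376, had 5.74-fold enrichment and 22 fragments (rank 236), 106 bp from Igkv15-101. Its Brg1 peak in DMSO, 7.95-fold with 13 fragments, had a summit 6 bp from the EBF1 summit, and after dTAG-13 the nearest Brg1 summit was 150.8 kb away. By presence in these lists, the 4 sites show every combination of Brg1, namely in DMSO only, after dTAG-13 only, in both and in neither. The combinations depend on list length. With the dTAG-13 list shortened to its 234 highest peaks, 0 of the 4 sites had a Brg1 peak after dTAG-13. Brg1 was also read in another line than EBF1.

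None of the 4 EBF1 sites was found again in the 5-peak EBF1 list after dTAG-13 (0 of 4, interval 0 to 60.2%), where 1.60% of the 312 were. Of the 4, 2 carried a Brg1 peak in DMSO, against 14.1% of the EBF1 list, and 2 carried one after dTAG-13, against 17.9%. With 4 sites the interval for each is 6.76 to 93.2%, which takes in both background shares. Seen from Brg1, EBF1 sites underlay 2 of the 8 peaks in DMSO, where 18.8% of the list did, and 2 of the 128 after dTAG-13, where 1.09% did.

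In Igk, 45 of the 50 Brg1 peaks after dTAG-13 lay in the V array and 5 at the J and C end. Within the array the highest was chr6:68827096-68827447 (8.81-fold, 32 fragments, rank 58 of 5206), 7.58 kb from Igkv12-89 and absent from the DMSO list. The other 3 of the 4 highest array peaks were chr6:70102834-70103733 near Igkv8-31 (6.23-fold, 22 fragments), chr6:69681174-69681874 inside Igkv4-51 (6.13-fold, 21 fragments) and the peak at the EBF1 site near Igkv8-34. A run of 5 peaks within 3483 bp covered Igkv6-32 and its sides, with folds of 2.89 to 4.96. With the span cut into 4 equal parts, 24 of the 50 peaks lay in the part that holds the J and C segments and 39 of the 162 V segments. Counted from the widened bound, the V end was bare for 531.8 kb, which takes in the 50 kb flank and 19 V segments. The next Brg1 peak after dTAG-13 lay 909.4 kb outside that bound.

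At the J and C end of Igk stood the highest −log10 q of all members after dTAG-13. The peak chr6:70735137-70736205 had 7.31-fold enrichment, 43 fragments and −log10 q of 19.9 (rank 44), 8.98 kb past Igkc, the constant segment. In DMSO the peak chr6:70735659-70735860 had 6.92-fold enrichment and 15 fragments, with its summit 40 bp away. The 3′ kappa enhancer is known to lie about this far past Igkc. A smaller peak stood 17.2 kb past Igkc (4.29-fold, 15 fragments), where a further downstream kappa enhancer, Ed, is known.

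Between the Igk J segments and Igkc, an intron known for its own enhancer, 2 Brg1 peaks were listed after dTAG-13. The peak nearer Igkc, chr6:70725603-70726108, had 5.03-fold enrichment and 23 fragments at 0.64 kb from it, and the other, chr6:70724765-70725093, had 4.56-fold and 16. In the gap between the last V segment and Igkj1, which is known for silencer and insulator elements, 1 peak stood 12.6 kb before Igkj1 (chr6:70709746-70710076, 4.14-fold, 17 fragments). None of these 3 had a counterpart in DMSO.

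**Figure D2:**
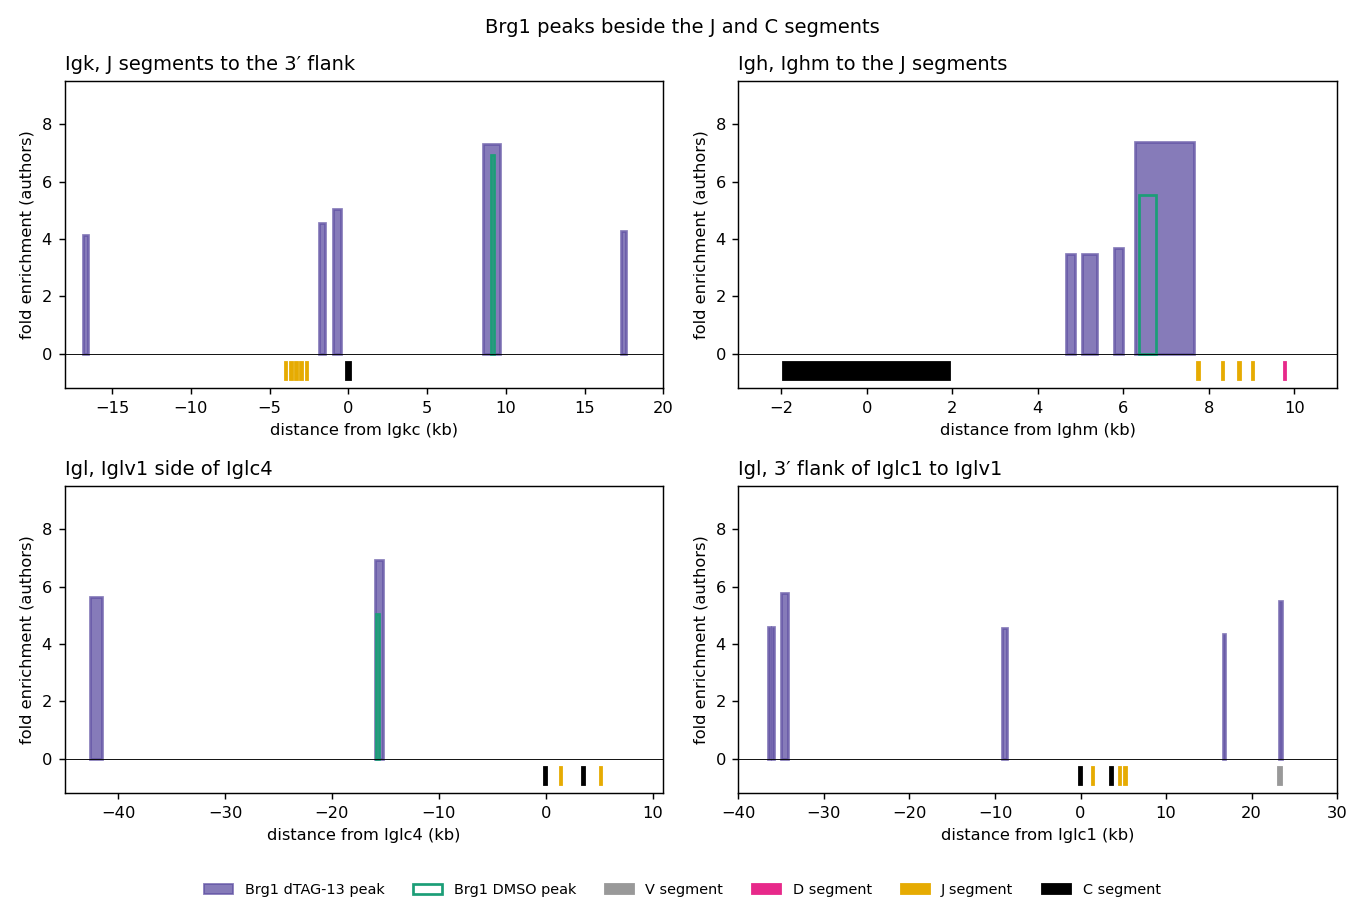
Brg1 peaks beside the J and C segments of Igk, Igh and Igl, as bars from peak start to end (kb from the named constant segment) with the authors' fold enrichment as height; filled bars are from the dTAG-13 list and open bars from the DMSO list. One peak in each locus is in both lists, at 7.31 and 6.92-fold in Igk, 7.36 and 5.54-fold in Igh and 6.94 and 5.05-fold in Igl.

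In Igh, Brg1 after dTAG-13 formed a run of 4 peaks over 2992 bp in the intron between Ighj4 and Ighm. The highest, chr12:113427042-113428437, had 7.36-fold enrichment and 33 fragments (−log10 q 14.7, rank 125) and lay 1.04 kb from Ighj4. The peak in DMSO at chr12:113427154-113427546 had 5.54-fold enrichment and 10 fragments (rank 207 of 234), with a summit 44 bp away. The other 3 of the run had 3.47, 3.47 and 3.69-fold and 12 to 17 fragments. Eμ is known to lie in this intron, which makes up 0.214% of the Igh span and held 8.89% of its peaks.

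Beyond this run, no Brg1 peak after dTAG-13 was listed over 566.4 kb, 21% of the Igh span. The stretch holds the 4 J segments, the 20 D segments and the 39 V segments nearest to them. DNA between joined segments may be missing here, since the Igh alleles of these lines are not given. Lost DNA and absent Brg1 cannot be told apart in this stretch. The gap between V and D segments, which is known for CTCF-bound insulator elements, and the Ighd and Ighg3 side of Ighm held 0 peaks in any list. The rule ends near Ighg3. The nearest Brg1 peak outside it after dTAG-13 was chr12:113222265-113222708 (3.09-fold, −log10 q 1.87), 33.5 kb past Igha, on the side where the 3′ regulatory region is known to lie. That peak lay 134.8 kb outside the bound. The nearest inside, 67.9 kb from the bound, was the lowest of the intron run, with −log10 q of 1.97.

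The remaining 41 Igh peaks after dTAG-13 stood in the V array, and with the span cut into 4 equal parts, 21 of the 45 lay in the part farthest from the J segments. The highest was chr12:115467996-115469025 at Ighv8-9 (6.57-fold, 27 fragments, −log10 q 11.5), followed by the peak beside the Gm30996 window. The peak chr12:114544957-114545425, 2.02 kb from Ighv10-4, had 5.65-fold and 25 fragments. The peak chr12:114108751-114109450 at Ighv9-2 had 6.5-fold and 20 fragments. The only V array peak of Igh in DMSO, chr12:114182637-114182832, had 7.9-fold enrichment and 15 fragments, 5.83 kb from Ighv14-4, and after dTAG-13 the nearest Brg1 summit was 4.61 kb away.

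About as many Igh peaks stood close to a segment as stood away from one. Of the 45 Igh peaks after dTAG-13, 23 (51.1%, interval 35.8 to 66.3), all of them in the V array, had their summit within 1 kb of a segment. Such bases make up 17.6% of the span. The farthest of the 45 lay 22716 bp from any segment. In Igk the count was 26 of 50 (52%, 37.4 to 66.3) for 12.6% of the span. The other loci had 1 of 11 in Igl, 3 of 10 in Tra/Trd, 1 of 3 in Trb and 1 of 9 in Trg, for 7.3, 22.2, 12.9 and 17.5% of their spans. These intervals, like those below, treat each peak as independent, whereas 15 of the 50 Igk peaks and 13 of the 45 Igh peaks stood in runs with gaps of at most 2 kb, so the intervals are too narrow. Segments of one family are also near-copies, and the part of mappability was not tested.

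Ighv segments are read toward the D and J segments, so the recombination signal of each lies on its 3′ side. Of the 23 summits within 1 kb of an Ighv segment, 6 lay inside it, 13 on its 3′ side and 4 on its 5′ side, the side of the V promoter. The 13 stood 22 to 964 bp from the segment with a median of 94 bp. Leaving out the 6 inside, 76.5% (interval 50.1 to 93.2) were on the 3′ side. Within 2 kb the count was 14 of 21 (66.7%, interval 43 to 85.4), which takes in an even split.

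By family, 15 of the 41 V array peaks were nearest an Ighv8 segment (36.6%, interval 22.1 to 53.1), although 11.5% of the array's bases are. Ighv8 was singled out among the families from these same peaks, and the interval does not allow for that choice. The family has 16 of the 184 V segments, and 9 of them were nearest to a peak: Ighv8-4, Ighv8-6, Ighv8-7, Ighv8-9, Ighv8-10, Ighv8-11, Ighv8-12, Ighv8-13 and Ighv8-14. Within 1 kb of their segment lay 12 of these 15 summits, against 11 of the other 26. Ighv1, the family of 92 segments that is interleaved with Ighv8, was nearest to 19 peaks (46.3%) for 51.1% of the bases. Ighv5, with 21 segments, was nearest to 0 peaks for 9.15% of the bases, and Ighv2, with 11 segments, to 0 for 3.56%. Both families have segments, such as Ighv5-1 and Ighv2-1, in the 566.4 kb stretch without a peak, so family and position were not told apart. Between the outermost Ighv8 segments alone, 15 of 35 peaks were nearest one (42.9%, interval 26.3 to 60.6), for 17.9% of the bases. The family's peaks were low, however, with a median −log10 q of 3.97 against 5.06 for the others, and at −log10 q of at least 5 the count fell to 2 of 16 (12.5%, interval 1.55 to 38.3), near the share of bases.

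**Figure D3:**
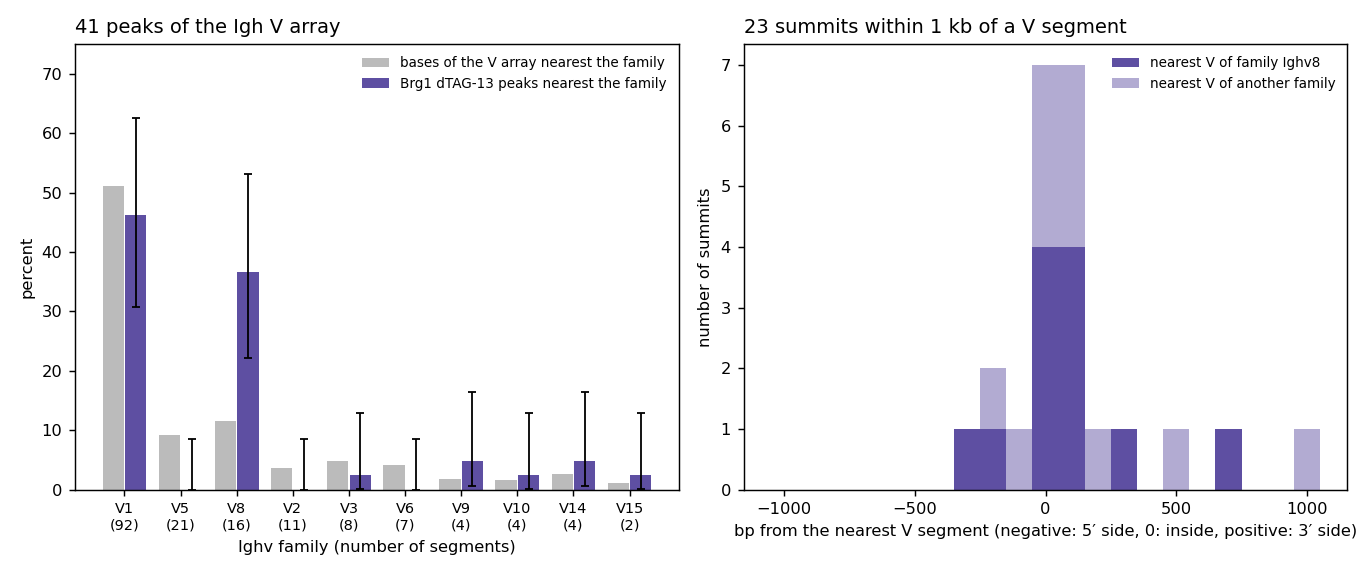
Left, share (percent) of the 41 Brg1 peaks after dTAG-13 in the Igh V array that are nearest each Ighv family, with 95% exact binomial intervals, beside the share of array bases nearest that family; families with a peak or at least 7 segments are drawn. Ighv8 reaches 36.6% for 11.5% of the bases. Right, distance in bp of the 23 summits within 1 kb from their V segment, 13 of them on the 3′ side.

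Igl has few segments, in 2 groups of J and C segments, and its highest peaks after dTAG-13 lay away from them. The peak chr16:19179163-19179897 had 6.94-fold enrichment and 37 fragments (−log10 q 15.5, rank 106), 15.5 kb from Iglc4. In DMSO the peak chr16:19179309-19179523 had 5.05-fold and 14 fragments, with a summit 124 bp away. The peak chr16:19026867-19027722 had 5.79-fold and 29 fragments, 34.5 kb past Iglc1, with 2 lower peaks beside it of 4.6-fold each. Lambda enhancers are known downstream of each of these constant segments. Further peaks stood 8.92 kb past Iglc1 (4.56-fold, 20 fragments), inside Iglv1 (chr16:19085072-19085434, 5.48-fold, 17 fragments) and 42.0 kb from Iglc4 (chr16:19152555-19153603, 5.63-fold, 23 fragments). Between Iglv3 and Iglv2 stood a pair, of which chr16:19246106-19246537 had 5.07-fold and 18 fragments and the other 4.54-fold and 16. One more peak, chr16:19007120-19007739 (5.48-fold, −log10 q 11), fell 4.01 kb outside the bound.

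Brg1 peaks in the J-C intron of Igh, past Igkc and downstream of Iglc4 were therefore listed in both conditions, and these 3 were among the 4 members in the dTAG-13 list's 234 highest peaks. Across the loci, 5 of the 8 Brg1 peaks in DMSO were found again after dTAG-13 (62.5%, interval 24.5 to 91.5), where 54.3% of the 234 were. The other refound pair were the EBF1 site near Igkv8-34 and chr6:68219840-68220023 at Igkv2-112, which had 6.38-fold and 10 fragments in DMSO and 3.45-fold and 14 fragments after dTAG-13. Not found again were the site near Igkv15-101, the site near Ighv14-4 and chr6:69662416-69662712, which had the highest fold of the 8, 9.61 with 15 fragments, and lay 13.2 kb from Igkv4-53. Of the 128 peaks after dTAG-13, 5 (3.91%, interval 1.28 to 8.88) overlapped a DMSO peak, where 2.42% of the list did. Both shares lie near those of their lists.

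**Figure D4:**
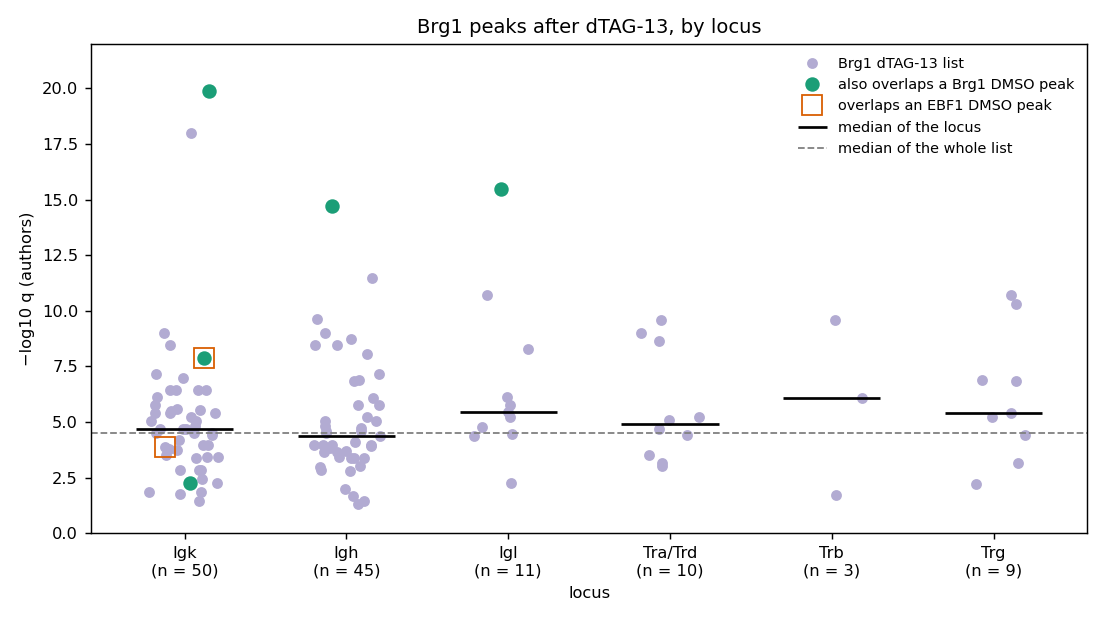
The authors' −log10 q of each Brg1 peak after dTAG-13 in the 6 loci, with the locus median as a bar and the list median as a dashed line; filled green points overlap a Brg1 peak in DMSO and open squares an EBF1 peak in DMSO. The green points at 19.9, 14.7 and 15.5 are the peaks past Igkc, in the intron between Ighj4 and Ighm, and 15.5 kb from Iglc4.

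The T-cell receptor loci, which B-lineage cells do not normally rearrange, held no EBF1 peak, no Brg1 peak in DMSO and 22 Brg1 peaks after dTAG-13, none among the 234 highest. The whole lists in DMSO come to 0.115 peaks per Mb for EBF1 and 0.086 for Brg1. At such densities, no peak in the 2.94 Mb of these loci is unremarkable. The 22 are 0.423% of their list, 7.49 per Mb against 1.91 for the whole list. Of the 10 in Tra/Trd, 4 stood in the flank past Trac, at 2.14, 4.0, 7.04 and 8.94 kb. The wide one at 4.0 kb, chr14:54227000-54228670, had 4.42-fold enrichment and 33 fragments, and the farthest, chr14:54233031-54233767, had 5.65-fold and 25. The alpha enhancer is known to lie downstream of Trac. Another peak lay between Trdc and Trdv5, 376 bp from Trdc (3.69-fold, 16 fragments). In the V array the highest was chr14:53559451-53560936 at Trav15-1-dv6-1, with 5.15-fold and 30 fragments, and chr14:53573590-53573807 followed it (4.6-fold, 19 fragments). No peak was listed among the D segments or the 62 J segments of this locus.

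Trb held 3 peaks. The highest, chr6:40890601-40891443, overlapped Trbv1 at the V end of the locus, with 6.81-fold enrichment and 21 fragments. A second, chr6:41075849-41076164, lay between Trbv6 and Trbv7 (5.27-fold, 18 fragments). The third, chr6:41554565-41554816, lay 6.55 kb past Trbc2 on the side where the beta enhancer is known, but had the lowest fold of all members, 2.77, with 21 fragments.

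Of the 9 peaks in Trg, 8 lay outside the V segments and V-V gaps. A pair past Trgc1, the first constant segment, included chr13:19219316-19220605 at 3.52 kb (5.31-fold, 31 fragments), on the side where a gamma enhancer is known, and chr13:19220812-19221248 (5.36-fold, 20 fragments). A run of 3 stood before and over Trgj1, with 4.04 to 4.85-fold and the highest at chr13:19210111-19210483 (18 fragments). Between Trgc3 and Trgc2 stood 3, of which chr13:19283175-19283509 had the highest fold, 5.6 with 19 fragments, and the others 3.38 and 4.6. The highest −log10 q of the locus, 10.7, belonged to chr13:19182089-19182577 between Trgv7 and Trgv4 (6.34-fold, 26 fragments).

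**Figure D5:**
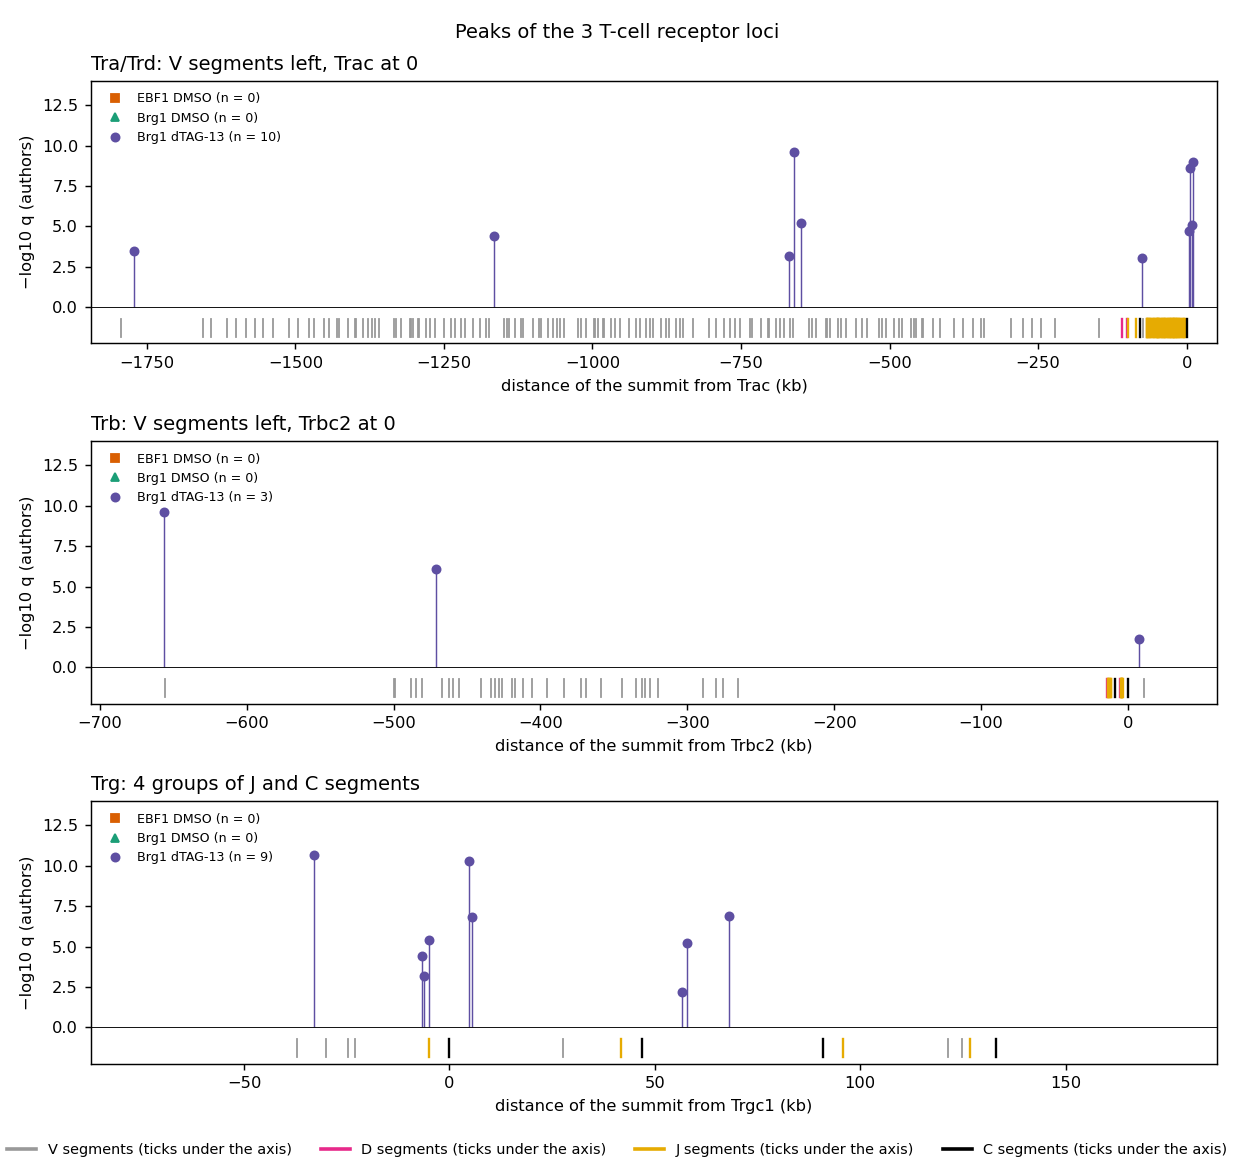
Summits of the members in Tra/Trd, Trb and Trg by distance from the named constant segment (kb), with the authors' −log10 q as height and V, D, J and C segments as ticks. All 22 are Brg1 peaks after dTAG-13, and 4 of the 10 in Tra/Trd stand past Trac.

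Peaks at genes that act on these loci were counted within 100 kb of each gene and assigned to the nearest protein-coding gene. Of 21 genes of V(D)J recombination and end joining, 0 had an EBF1 peak in DMSO and 0 a Brg1 peak in DMSO, where 1.27% and 0.813% of 21900 protein-coding genes did. After dTAG-13, 7 had a Brg1 peak (33.3%), where 12.0% of all genes did. By their highest peak, these were Dntt, the enzyme that adds untemplated bases at junctions (2.86-fold, 21 fragments), Dclre1c, the Artemis nuclease that opens hairpin ends (4.37-fold, 18 fragments), and Xrcc6, the Ku70 end-binding subunit (3.3-fold, 17 fragments). Xrcc4, a ligase partner (4.67-fold, 14 fragments), Polm, a polymerase of end joining (4.15-fold, 24 fragments), Nbn, of the MRN complex (4.13-fold, 12 fragments), and Hmgb1, a RAG cofactor (4.46-fold, 18 fragments), made up the rest. These peaks were not high in their list, with ranks from 1691 (Polm) to 4762 (Dntt) of 5206. Polm alone, at 5.66, reached −log10 q of at least 5. The share of all genes at that threshold was not counted. Rag1 and Rag2 had none, and the nearest Brg1 summits after dTAG-13 lay 723.5 and 740.5 kb away.

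Among 22 regulators of receptor loci, EBF1 peaks in DMSO were assigned to Pax5, the B-lineage commitment factor, and Foxo1, an activator of Rag transcription. Brg1 peaks in DMSO were assigned to these and to Ezh2, a histone methyltransferase. The Foxo1 peaks lay 93.8 kb off for EBF1 and 93.9 kb for Brg1, and the Ezh2 peak 26 kb, so with a limit of 20 kb Pax5 alone was left in both lists, 4.55% of the 22, where 1.06% and 0.607% of all genes had a peak of EBF1 and Brg1. At 100 kb the shares were 9.09% for EBF1 and 13.6% for Brg1, to be read against the 1.27% and 0.813% above. After dTAG-13, 15 of the 22 (68.2%) had a Brg1 peak within 100 kb, where 12.0% of all genes did, and the same 15 had one within 20 kb, where 10.9% did. Pax5 had the highest by −log10 q, with 12.2-fold enrichment and 52 fragments (rank 4 of 5206). Next came Ets1 (7.06-fold, rank 60), Foxo1 (7.34-fold, rank 167) and Runx1 (6.68-fold, rank 524), of which the Foxo1 peak lay 94 kb and the Runx1 peak 41.3 kb from the gene. The highest peak of each of the others stood within 20 kb of its gene, except that of Ezh2 at 26 kb. Irf8 had 5.88-fold, Tcf12 5.41, Ctcf 4.78, Stat5b and Ezh2 4.63 each, Tcf3 4.41, Ikzf1 4.34, Yy1 4.14, Irf4 3.97, Spi1 3.86 and Rela 3.28. Of 7 B-lineage markers, 3 had an EBF1 peak in DMSO (Cd79b, Pax5 and Igll1), 5 a Brg1 peak in DMSO and all 7 a Brg1 peak after dTAG-13, and of 7 T-lineage markers 0, 0 and 2 did, the last being Cd3d and Lck. The shares over all genes beside these counts are the same 1.27%, 0.813% and 12.0%.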

How the data were processed

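ChIP-seq peak lists of 4 immunoprecipitations were used; the 4 inputs were not analysed here. Members and gene lists were chosen with earlier results of these data known. MACS2 2.2.7.1, Bowtie2 2.3.5.1, deepTools 3.3.2 and SAMtools 1.10 are named in the submitters' processing notes; filters and calling settings were not given in the sources used here. Each deposited list carries 1 library's name in its peak names. The authors' values per peak are a score, a fold enrichment ratio, −log10 p and −log10 q, used to rank and filter within their own list and otherwise set side by side. The deposited summit offset is another kind of value.

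Fold and p were solved for fragments at the summit and local background, giving whole fragments within 0.02 for 100% of peaks, after a scaling of 0.863 and 0.818 for the EBF1 lists in DMSO and dTAG-13; several whole solutions existed for 17.3% and 0% of the EBF1 peaks and 10.7% and 1.84% of the Brg1 peaks, in the same order, and the largest was kept. This step was tested on simulated data. The median summit held 26 and 35 fragments for EBF1 and 13 and 18 for Brg1, DMSO first. Total reads per library were not used here.

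Summits were placed among the segments that RefSeq annotates on GRCm38.p6, the lists being on GRCm38; "near" is within 1 kb and shared peaks overlap by at least 1 bp. Intervals are exact Clopper-Pearson at 95%. Named are all EBF1 members, all Brg1 members in DMSO and, after dTAG-13, the 5 highest by −log10 q per locus, shared peaks and those in J-C introns, D-J or constant clusters or 3′ flanks; peaks beside the printed promoters and in runs were named after their values were seen. Alternatives were other widths, thresholds, distances and overlap rules. No genome was used, so motifs under summits were not searched. Python 3.11.15, NumPy 2.4.6, SciPy 1.17.1 and pandas 2.3.3 were used.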

Additional observations from a re-analysis of the deposited data

Results flagged for a closer look

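Under the same contrast the 2 antibodies moved in opposite directions in the 6 loci. EBF1 peaks went from 4 in DMSO to 0 after dTAG-13, a difference of -4, and Brg1 peaks from 8 to 128, a difference of 120. The whole lists moved the same way, from 312 to 5 for EBF1 and from 234 to 5206 for Brg1. The loci's share of the Brg1 list was 3.42% for DMSO and 2.46% for dTAG-13, so it did not rise with the count. For EBF1 the shares were 1.28% and 0%, the latter out of 5 peaks (interval 0 to 52.2%). The opposite directions are thus those of the whole lists and were not shown to be particular to the loci. The difference between the antibodies was not tested, since each group is 1 library. The antibodies were used on different lines, and the Brg1 library after dTAG-13 had a lowest local background 3.54 times that of its DMSO library. No group has enough samples to look for a sample that stands apart.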

How the results depend on the processing

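Of the alternative values for list totals, shares and recombination-gene counts, 49 kept within the interval of the main share or within 1.5 times the main count, and 11 did not. Some of the 49 could hardly move. Among them are counts of 0 under stricter filters and shares with wide intervals, such as 1 of 3 in Trb (0.84 to 90.6%). The tally is therefore no measure of stability. Over the 6 loci, −log10 q of at least 5 kept the 4 EBF1 peaks in DMSO, of 254 left in that list. For Brg1 it kept 5 of 149 in DMSO and 59 of 2212 after dTAG-13. At 10 or more, EBF1 in DMSO kept 2 of 126, Brg1 in DMSO 1 of 46 and Brg1 after dTAG-13 8 of 411. At a fold of at least 5, EBF1 and Brg1 in DMSO kept all 4 and all 8, of 263 and 194 left in their lists. Brg1 after dTAG-13 kept 36 of 1525 at that fold, and 4 in its list shortened to 234 peaks. With the peak's interval overlapping a segment in place of a summit within 1 kb, the share was 34% in Igk and 35.6% in Igh. Requiring a reciprocal overlap of 50%, 12.5% of the Brg1 DMSO peaks (1 of 8) were found again, the dTAG-13 peaks in the J-C intron of Igh, past Igkc and near Iglc4 being 1396, 1069 and 735 bp wide against 393, 202 and 215 bp in DMSO. Against the shortened list, 0% of the EBF1 sites had a Brg1 peak after dTAG-13. The smaller counts under stricter thresholds and the shortened list follow from fewer peaks entering.

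The Ighv8 share and the 3′ side were not among the questions set beforehand, and their alternatives were also chosen after seeing the data. Merging peaks closer than 2 kb gave 12 of 36 (33.3%) for Ighv8 and 12 of 15 (80%) for the 3′ side. Without widening, the 6 loci held 118 Brg1 peaks after dTAG-13 and with 100 kb 130. No paired analysis was possible because each group is 1 library. The lowest summit among the Brg1 members held 10 fragments in DMSO and 12 after dTAG-13, so absence from the shallower DMSO list cannot be told apart from its depth.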
